A study of Caenorhabditis elegans with 48 samples.

Results

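The cytosolic ribosomal protein genes of Caenorhabditis elegans were examined in 48 RNA-seq libraries of young adults. The family was taken as every listed gene whose symbol starts with rpl- (large subunit), rps- (small subunit) or rla- (the acidic stalk of the large subunit), after the gene identifiers in the files had been matched to symbols. It held 81 genes of the 13129 listed in at least 1 of the 4 strain tables: 47 rpl-, 31 rps- and 3 rla- genes. All 81 were listed in all 4 tables. Levels are in CPM, reads scaled to a fixed library size. Requiring an average of 1 CPM or more over the 12 libraries of a strain left 80 for testing in CA1200 and JTL611, where rpl-42 fell below it, and 81 in CA1199 and JTL621.

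Each cytosolic ribosome holds 1 copy of most of these proteins, so the genes are usually read at high and similar levels, and their transcripts make up a large share of the messenger RNA of a growing animal. Ribosomal protein synthesis is controlled in many eukaryotes by the TOR kinase, and in budding yeast the transcripts of this family fall strongly soon after a shift to high temperature. HSF-1 is the transcription factor that induces heat shock proteins.

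The 4 strains share the unc-119(ed3) background allele, rescued by Cbr-unc-119(+) in the transgene, and an mRuby-tagged TIR1, the plant F-box protein that targets degron-tagged proteins for breakdown when auxin is given. In CA1200 and JTL611 the transgene ieSi57 drives TIR1 from the eft-3 promoter in the soma, and in CA1199 and JTL621 the transgene ieSi38 drives it from the sun-1 promoter in the germline. JTL611 and JTL621 also carry hsf-1::aid::gfp, an HSF-1 fused to the degron, while CA1200 and CA1199 express TIR1 alone and are their controls. Animals were grown for 51 h from synchronised larvae, kept for 2 h on auxin or ethanol (solvent) plates, and then held at 20 °C or moved to 34 °C for a 30 min heat shock. This gave 16 groups of 3 libraries each. Libraries were made from whole animals with polyA selection and kept strand information. The labels do not say that replicates came from separate cultures, so p-values measure only the spread between these libraries.

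Reads on listed genes ranged from 9000611 to 24025791 per library, and the family took 977984 to 3017701 of them. The summed level of the inducible heat shock protein genes was 15686 to 21322 CPM in the 12 libraries heat shocked on ethanol and 7.74 to 154 CPM in the 12 kept on ethanol at 20 °C. It was 177 to 221 CPM in the 3 JTL611 libraries heat shocked on auxin, and 16474 to 21829 CPM in the 9 libraries of the other strains heat shocked on auxin. Ribosomal RNA, which polyA selection is meant to reduce, took 3.89% to 34.5% of the reads. Nuclear and mitochondrial ribosomal RNA were not separated. The highest share was in JTL621 heat shocked on auxin, replicate 2, which was also the shallowest library. Whole animals were sequenced, so a lower level may come from fewer cells of a type or from less RNA per cell, and these cannot be told apart.

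Per kilobase of exon, the family was narrow in level except for 6 genes. The median member stood at 2620 CPM per kilobase, averaged over the 48 libraries, and the 25th and 75th percentiles were 2023 and 3082, a ratio of 1.52. The median of the 12098 other genes listed in all 4 tables, ribosomal RNA genes left out, was 10.8 CPM per kilobase. Of the 81 members 75 were above 1000 CPM per kilobase, against 64 of those 12098 other genes. The medians of the large and small subunit genes were 2503 and 2697 CPM per kilobase. These levels average over tables that were normalised separately.

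The highest levels belonged to rps-25 (4448 ± 533 CPM per kilobase, SD, n = 48 libraries), rps-23 (4348 ± 642) and rpl-41.2 (4337 ± 706). Their group means overlapped, with ranges over the 16 groups of 3934 to 4963, 3878 to 5218 and 3880 to 5133, so the order of these 3 small proteins' genes is not resolved. At the other end stood rpl-42 (1.59 ± 0.646 CPM per kilobase, n = 48), rpl-24.2 (133 ± 15.5) and rpl-41.1 (157 ± 21.5). The ranges of group means of rpl-24.2 and rpl-41.1, 118 to 154 and 135 to 175, overlapped each other, and rpl-42 lay far below both. rpl-24.2 is called rsl-24D1 in the RefSeq annotation; its human relative of that name is a factor of ribosome assembly and not a part of the finished ribosome. The next lowest were rpl-25.1 (400.2), rpl-37 (537) and rpl-11.2 (821), each of which has a more abundant counterpart described with the copies.

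**Figure D1:**
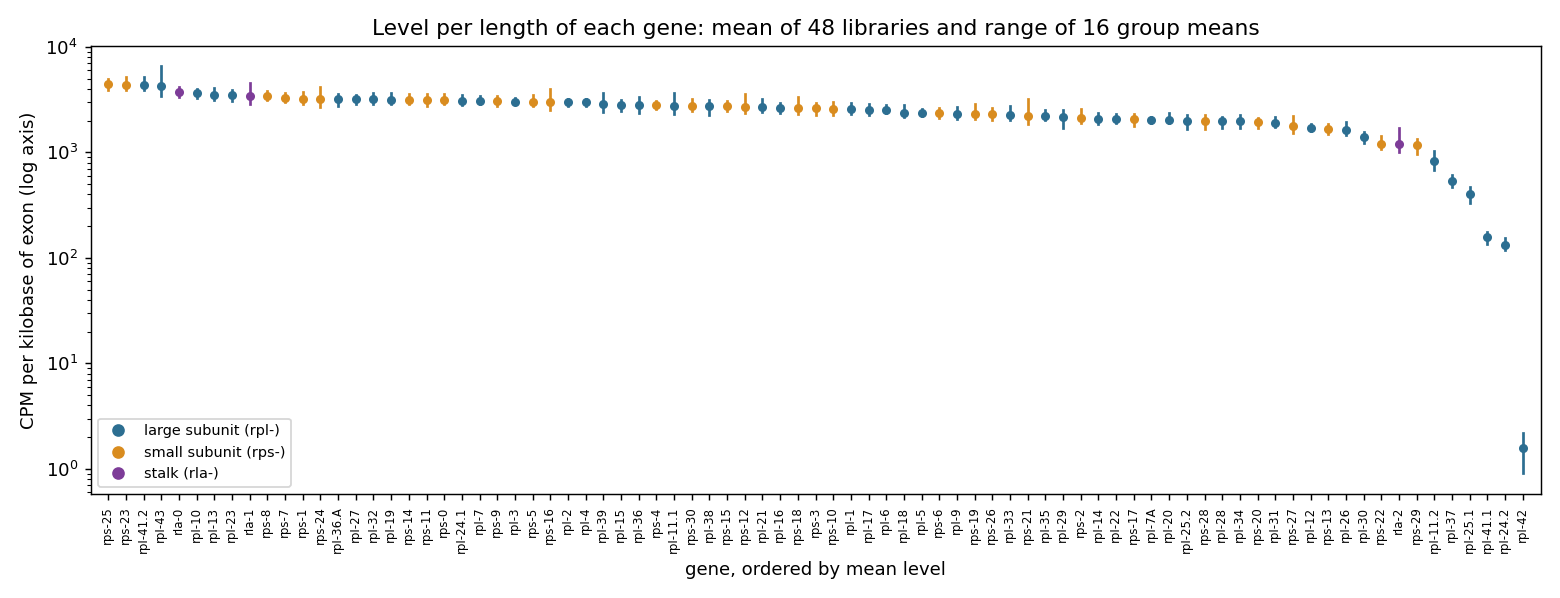
Level of each of the 81 genes in CPM per kilobase of exon on a log axis, ordered by the mean of 48 libraries (points), with lines for the lowest and highest of 16 group means. 75 genes lie above 1000, and 6 large subunit genes trail down to rpl-42 at 1.59.

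The 3 stalk genes were not level with each other. rla-0, the base protein that anchors the stalk to the ribosome, stood at 3709 ± 382 CPM per kilobase (SD, n = 48) and rla-1, one of the acidic proteins bound to it, at 3434, ranking the fifth and the ninth of the family. rla-2, another acidic protein, stood at 1189 ± 301 and ranked 74. The highest of its 16 group means, 1683, lay below the lowest of rla-0, 3353. RefSeq names rla-2 as rplp-2.2, and whether a further gene for this protein adds to its transcript was not examined.

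Numbers in the names do not always mark copies of 1 gene. rpl-7 and rpl-7A encode different proteins, as do rpl-36 and rpl-36.A, and both pairs were of similar level: the log2 ratio of rpl-7 to rpl-7A per kilobase had group means of 0.48 to 0.72, and that of rpl-36 to rpl-36.A of -0.24 to -0.09. In 4 pairs the suffix does mark related genes, and in each of them 1 gene carried most of the transcript. Of these, rpl-24.1 and rpl-24.2 may encode proteins of different roles, since RefSeq names them rpl-24 and rsl-24D1. rpl-24.1 exceeded rpl-24.2 by 21.4- to 25.3-fold over the 16 group means, and rpl-41.2 exceeded rpl-41.1, its neighbour on chromosome I, by 25.8- to 29.4-fold. rpl-11.1 on chromosome V exceeded rpl-11.2 on the X chromosome by 2.65- to 3.94-fold. rpl-25.2 on chromosome I exceeded rpl-25.1 on the X chromosome by 3.74- to 6.14-fold. rpl-11.2 (X:2241738-2242618, minus strand, WBcel235) and rpl-25.1 (X:4715178-4715796, plus strand) were the 2 members of the family on the X chromosome, and all others are on autosomes. How the authors' counting treated reads that fit both genes of a pair is not given in the sources used here, so each ratio carries that uncertainty.

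The pairs with an X-linked copy varied more between strains than the other pairs. The log2 ratio of rpl-11.1 to rpl-11.2 had a median of 1.94 over the 24 libraries of the soma TIR1 strains CA1200 and JTL611, with a range of 1.45 to 2.04, and of 1.64 over the 24 libraries of the germline TIR1 strains, with a range of 0.94 to 1.98. The log2 ratio of rpl-25.2 to rpl-25.1 had medians of 2.51 and 2.19, with ranges of 1.85 to 2.66 and 1.48 to 2.85. A ratio within a library does not depend on the scaling of the table, but the ranges overlapped and the difference between strains was not tested. The lowest ratios of both pairs came from the same 2 libraries, JTL621 on auxin at 20 °C, replicate 2 (0.94 and 1.48) and, among the soma TIR1 strains, CA1200 heat shocked on auxin, replicate 3 (1.45 and 1.85). For rpl-24.1 over rpl-24.2 the medians of the same sets of libraries were 4.51 and 4.55, and for rpl-41.2 over rpl-41.1 they were 4.80 and 4.78.

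**Figure D2:**
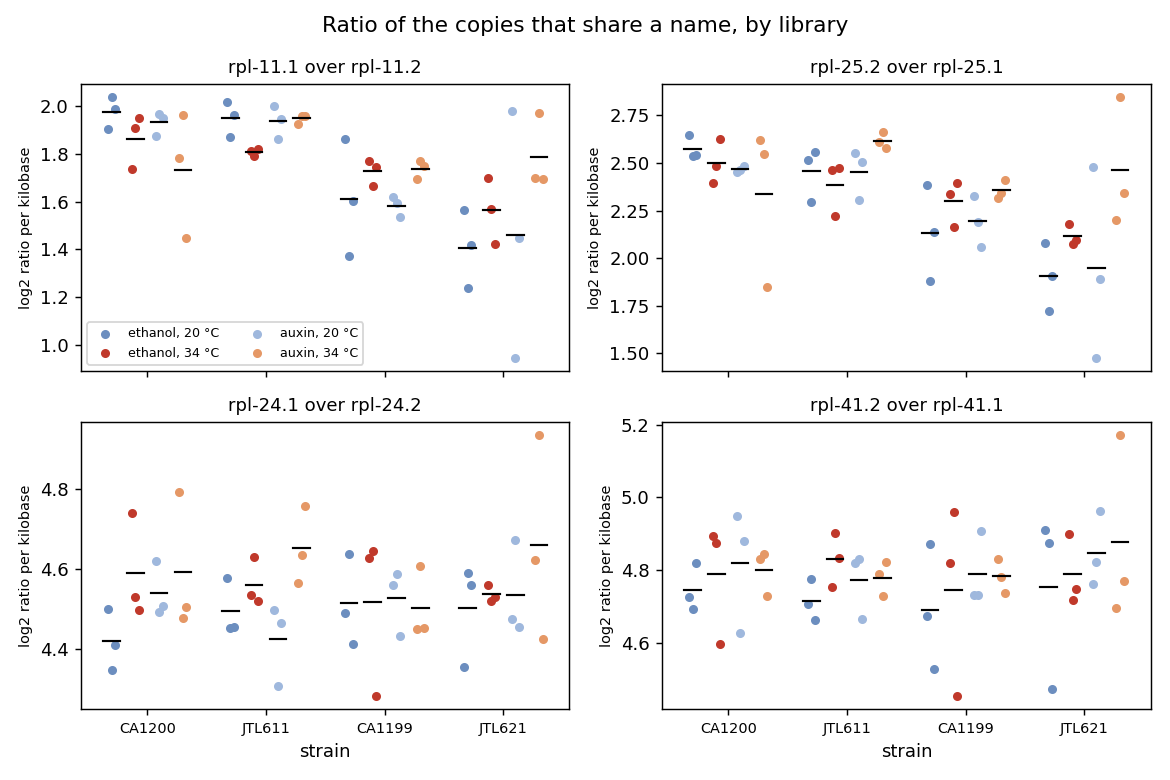
Log2 ratio of the level per kilobase of the more abundant to the less abundant gene of a pair in each library (points, coloured by group). Group means are bars, for 4 pairs in 4 strains, and each panel has its own axis. The top panels, whose less abundant copy is X-linked, hold their highest values in CA1200 and JTL611 for rpl-11.1 over rpl-11.2, while the bottom panels lie between 4.28 and 5.17 in all strains.

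The symbols used here leave out ribosomal protein genes that RefSeq names otherwise. Its table names 3 more genes as ribosomal proteins: Y37E3.8 as rpl-27A, W01D2.1 as rpl-37.1, and ubl-1, which encodes a ubiquitin-like protein fused to a small subunit protein, as rps-27A. Their levels were within the range of the family, at 2868 to 3182 CPM per kilobase for Y37E3.8, 2255 to 2493 for W01D2.1 and 1956 to 2205 for ubl-1 over the 4 strain means. The low member rpl-37 (C54C6.1), a gene of 1 exon, is rpl-37.2 in that table and stood at 506 to 564 CPM per kilobase, below W01D2.1 in each strain. In none of the 5 comparisons within a strain did any of the 3 genes reach an adjusted p of 0.05 (limma, Benjamini-Hochberg), the smallest being 0.104 for W01D2.1 in JTL621. Ribosomal protein genes that neither name marks are not counted here. ubq-2, a further gene outside the rule, stood at 2896 to 3164 CPM per kilobase over the 4 strain means, with a smallest limma adjusted p of 0.192.

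Heat shock on ethanol asked how the family responds while HSF-1 is present in all strains. The summed level of the family was 113338 ± 2331 CPM (SD, n = 3) at 20 °C and 116627 ± 7360 after heat in CA1200, 118819 ± 7412 and 127975 ± 24912 in JTL611, 114921 ± 6279 and 132159 ± 15091 in CA1199, and 109784 ± 3445 and 119015 ± 10774 in JTL621. The means after heat were higher in each strain, and the libraries of the 2 temperatures overlapped in each strain except CA1199, where the lowest heat shocked library, 120830, lay just above the highest at 20 °C, 120717. In JTL611 the libraries after heat were 156503, 110511 and 116912 CPM, so that 1 library lay far above the others. Expressed as a share of all reads, the family took 9.41% (CA1200 heat shocked on auxin, replicate 3) to 15.6% (JTL611 heat shocked on ethanol, replicate 1).

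**Figure D3:**
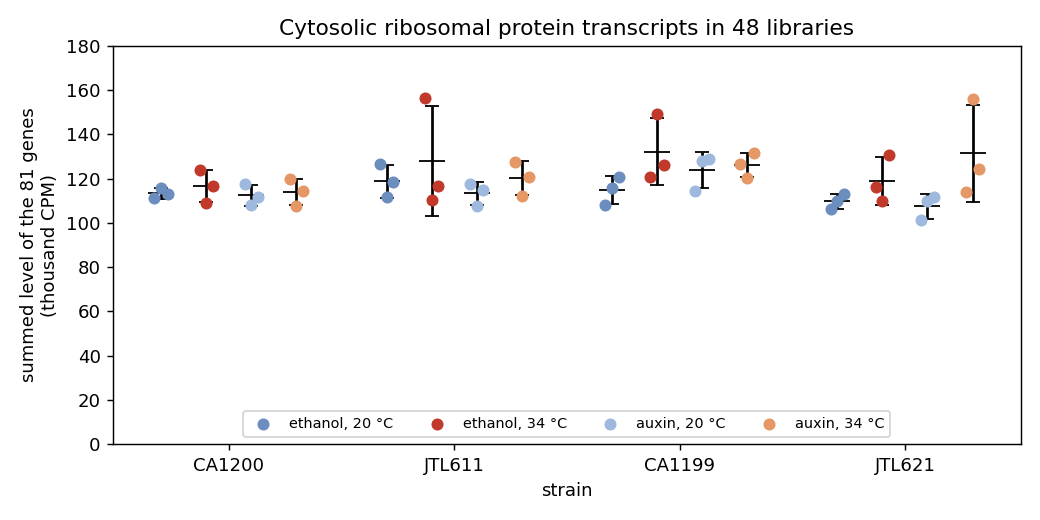
Summed level of the 81 genes in each of 48 libraries (points), by strain and group, with the mean and SD of 3 libraries (bars). The axis starts at 0. Libraries lie between 101155 and 156503 CPM, and the 3 highest are single heat shocked libraries of JTL611, JTL621 and CA1199.

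No member passed the test in heat shock on ethanol in any strain (limma on log2(CPM + 1), two-sided, Benjamini-Hochberg over all genes tested, adjusted p under 0.05). In CA1200 0 of 80 members were called, against 13.2% of the 11878 genes tested. In JTL611 0 of 80 were called against 6.49% of all genes, in CA1199 0 of 81 against 18.3%, and in JTL621 0 of 81 against 9.97%. At an unadjusted p under 0.05 there were 0, 0, 10 and 0 members in the same order, and limma-voom on the recovered reads also called 0 in each strain. Single libraries could decide calls in CA1199. Without replicate 3 at 20 °C, 5 of 81 members were called higher on ethanol (limma, Benjamini-Hochberg), against 4.62% of all genes called higher in that fit. These were rpl-17, rpl-25.2, rpl-26, rpl-34 and rps-10.

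The changes were small and mostly of one sign. The median log2 change of the members was 0.04 for CA1200, 0.10 for JTL611, 0.19 for CA1199 and 0.11 for JTL621, beside medians of all genes of -0.01, 0.00, 0.01 and 0.01. Values above 0 were found for 66 of 80, 75 of 80, 81 of 81 and 76 of 81 members, but members of 1 library share its scaling and composition, so these counts do not stand for that many separate observations. The medians of the large and small subunit genes were farthest apart in CA1199, at 0.18 and 0.22.

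The intervals give the precision of each change within the fit, from the spread between libraries pooled over the 4 groups of a strain. They do not cover the choice of scaling or shifts that members of a library share. Without replicate 1 of the heat shocked group, the family median in JTL611 was -0.07 in place of 0.10. The 95% interval of the change lay wholly within a 1.5-fold rise or fall for 80 of 80 members in CA1200 and in JTL611, and for 73 and 74 of 81 in CA1199 and JTL621. Of all genes tested, 72.6%, 63.8%, 59.8% and 49.8% had such an interval.

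Averaged over the 4 strains, the largest log2 changes on ethanol were those of rps-26 (0.18), rpl-21 (0.17) and rpl-34 (0.16), and the smallest those of rpl-7A (0.00), rpl-41.1 (0.01) and rpl-31 (0.01). rps-26, a small subunit protein near the exit of the messenger RNA, stood at 916, 975 and 977 CPM at 20 °C and at 1107, 957 and 1015 CPM after heat in CA1200. In CA1199 it stood at 857, 967 and 1078 CPM at 20 °C and at 1078, 1329 and 1101 after heat. The 2 groups overlapped in CA1200, and in CA1199 the lowest heat shocked library was level with the highest at 20 °C. The largest of its 4 log2 changes, in CA1199, was 0.27 (SE 0.12, limma adjusted p = 0.122). rpl-31, a large subunit protein at the rim of the peptide exit tunnel, stood at 775, 863 and 829 CPM at 20 °C and at 831, 687 and 783 CPM after heat in CA1200. Its log2 change there was -0.10 (SE 0.08, limma adjusted p = 0.487), and it was 0.13 in CA1199.

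**Figure D4:**
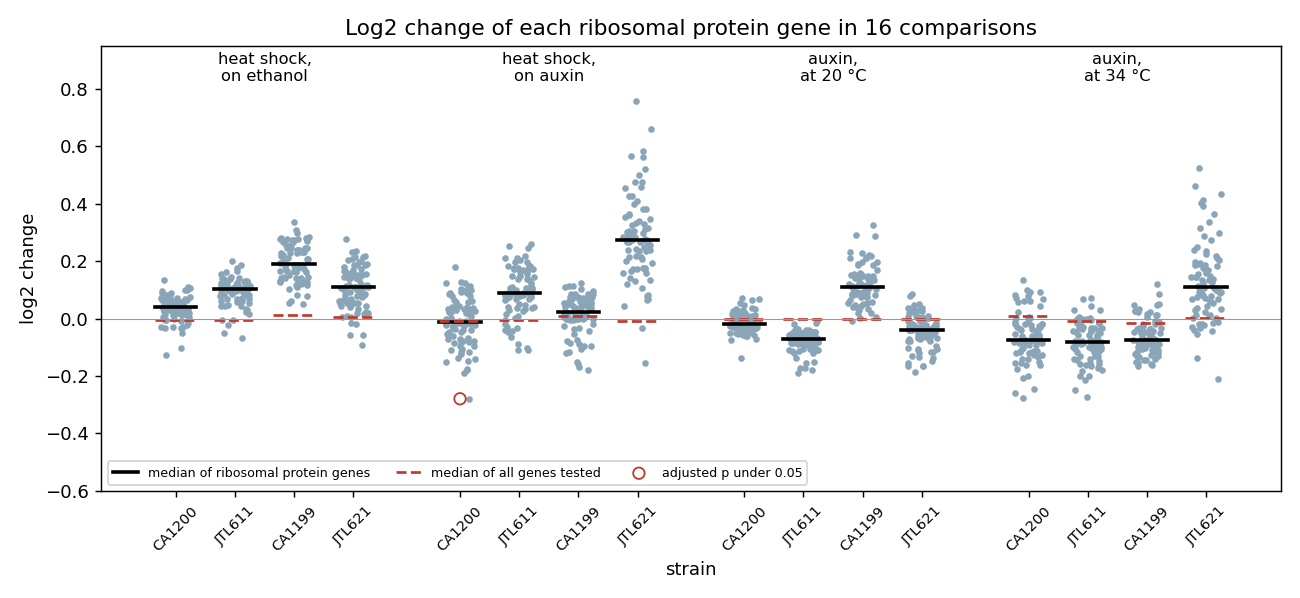
Log2 change of each ribosomal protein gene (points) in 4 comparisons and 4 strains, with the median of the family (black bars) and of all genes tested (red dashes); the ring marks an adjusted p under 0.05. The family medians on heat shock run from -0.01 to 0.28, and the 1 ring is rpl-29 in CA1200.

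On auxin, heat shock gave 1 call in the family. In CA1200, 1 of 80 members was called, in the direction of lower, against 9.86% of the 11878 genes tested called lower and 19.4% called in either direction. The member was rpl-29 (WBGene00004443, IV:13882225-13882618, plus strand, WBcel235), a protein-coding gene with 240 bp of exon whose product is a small protein of the large subunit. It stood at 524, 467 and 481 CPM on auxin at 20 °C and at 410.4, 455 and 352 CPM after heat, so the groups did not overlap. The log2 change was -0.28 (SE 0.09, 95% interval -0.47 to -0.09, limma adjusted p = 0.0396). The call lay close to the threshold. With 1 library left out, the limma adjusted p ranged from 0.0151 to 0.146 and the log2 change from -0.37 to -0.18. The adjusted p was 0.0612 without replicate 1 and 0.127 without replicate 3 of the heat shocked group. For the group at 20 °C it was 0.146 without replicate 1 and 0.0873 without replicate 3. With the trend on gene length removed, an alternative chosen after seeing the data, the log2 change of rpl-29 was 0.02. In the other heat comparisons rpl-29 was not called, and its values lay on both sides of 0. Its log2 change on auxin was 0.08 in JTL611, -0.09 in CA1199 and 0.40 in JTL621, and on ethanol it was -0.03, -0.01, 0.16 and 0.09 for CA1200, JTL611, CA1199 and JTL621.

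In the other strains no member was called on auxin. In JTL611 0 of 80 members were called against 7.64% of all genes, in CA1199 0 of 81 against 16.4%, and in JTL621 0 of 81 against 17.5%. At an unadjusted p under 0.05 there were 0, 0 and 20 members, and limma-voom called 0 in each of the 3 strains and 1 in CA1200. The median log2 change of the members was -0.01 for CA1200, 0.09 for JTL611, 0.02 for CA1199 and 0.28 for JTL621. In CA1200 all 80 intervals lay within a 1.5-fold change, in JTL611 76 of 80, in CA1199 all 81 and in JTL621 39 of 81, beside 69.3%, 63.3%, 61.1% and 42.7% of all genes.

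JTL621, in which the germline TIR1 meets degron-tagged HSF-1, had the widest values. The summed level of the family was 101155, 109806 and 111840 CPM on auxin at 20 °C and 113911, 155983 and 124602 CPM after heat. The groups did not overlap, and replicate 2 lay far above the others. The members of the largest log2 changes were rpl-43 (0.76, SE 0.29, limma adjusted p = 0.0860) and rps-21 (0.66, SE 0.26, limma adjusted p = 0.0912). rpl-43, a small zinc-binding protein of the large subunit, stood at 840.3, 991 and 1038 CPM at 20 °C and at 1086, 3072 and 1252 CPM after heat. rps-21, a small protein of the small subunit, stood at 554, 561 and 590.1 CPM at 20 °C and at 624, 1542 and 754 CPM after heat. In both genes replicate 2 was more than 2 times the other heat shocked libraries.

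The result in JTL621 depended on which library was left out. Without replicate 2 of the heat shocked group the median log2 change of the family was 0.16, and 0 members were called. Without replicate 1 of that group it was 0.37, and 25 of 81 members were called higher, against 12.5% of all genes called higher in that fit, among them rpl-29, rpl-39, rps-21 and rpl-43. These genes were named after their values were seen. Replicate 2 was the library with 34.5% of reads on ribosomal RNA. With CPM taken over genes other than ribosomal RNA genes, 0 members were called in JTL621.

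Auxin at 20 °C asked whether the treatment itself, or the loss of HSF-1 in the degron strains, moved the family without heat. 0 of 80 members were called in CA1200 (0.177% of all genes), 0 of 80 in JTL611 (0.0916%), 0 of 81 in CA1199 (0.213%) and 0 of 81 in JTL621 (0.172%), with limma adjusted p-values as above. At an unadjusted p under 0.05, 0 members were found in each of the 4 strains, and limma-voom called 0. The median log2 change was -0.02, -0.07, 0.11 and -0.04. In JTL611 the value was below 0 for 80 of 80 members, and in CA1199 it was above 0 for 80 of 81. Of all genes, 49.8% and 49.4% were above 0 in these 2 strains. Members of 1 library share its scaling and composition, so these counts do not stand for separate observations. Other genes of up to 400 bp averaging 10 CPM or more had median log2 changes of -0.12 in JTL611 and 0.12 in CA1199. The intervals lay within a 1.5-fold change for 80 of 80, 79 of 80, 78 of 81 and 74 of 81 members, beside 89.6%, 79.9%, 83.7% and 68.5% of all genes.

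Auxin with heat shock asked whether depletion of HSF-1 changed the family during the heat shock response. 0 of 80 members were called in CA1200 (0.0589% of all genes), 0 of 80 in JTL611 (0.325%), 0 of 81 in CA1199 (0.246%) and 0 of 81 in JTL621 (0.172%) by limma. At an unadjusted p under 0.05 there were 3, 1, 0 and 0 members, and limma-voom called 0. The median log2 change was -0.07, -0.08, -0.07 and 0.11. In JTL611, where auxin lowered the summed inducible heat shock protein transcripts to 177 to 221 CPM, the summed level of the family after heat was 127562, 112347 and 120650 CPM on auxin and 156503, 110511 and 116912 CPM on ethanol. The libraries overlapped. The intervals in JTL611 lay within a 1.5-fold change for 80 of 80 members, beside 75.7% of all genes. They did so for 80 of 80, 81 of 81 and 63 of 81 members in CA1200, CA1199 and JTL621, beside 88.5%, 78.6% and 60.8% of all genes. The member of smallest unadjusted p in JTL611 was rpl-25.1, the X-linked copy, with a log2 change of -0.27 (unadjusted p = 0.0172 and adjusted p = 0.999 by limma); it stood at 228, 191 and 184 CPM on ethanol and at 188, 159.9 and 149.9 CPM on auxin after heat.

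The difference of the auxin effects between heat and 20 °C, tested as an interaction within a strain, gave 0 members called in each of the 4 strains by limma. Of all genes 0% were called in CA1200, CA1199 and JTL621 and 0.2% in JTL611. At an unadjusted p under 0.05, and by limma-voom at an adjusted p under 0.05, there were 0 members in each strain. The median log2 difference was -0.04 for CA1200, -0.01 for JTL611, -0.19 for CA1199 and 0.16 for JTL621. Set against its control strain, the auxin effect with heat shock differed by a median of -0.02 in JTL611 (0 of 80 called, 0.229% of all genes) and of 0.18 in JTL621 (0 of 81 called, 0% of all genes). These also gave 0 members at an unadjusted p under 0.05 and 0 by limma-voom. The intervals of that difference lay within a 1.5-fold change for 70 of 80 members in JTL611 against CA1200 and for 43 of 81 in JTL621 against CA1199. Of all genes 59.3% and 32.5% had such an interval, so the precision for the germline strains was lower for the family and for all genes.

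In the authors' deposited table for auxin with heat shock, 0 of 81 members had a false discovery rate under 0.05 in any of the 4 strains, beside 0.434%, 0.823%, 0.471% and 0.328% of the genes listed for CA1200, JTL611, CA1199 and JTL621. The authors' deposited table gave an unadjusted p under 0.05 for 5, 3, 0 and 3 members in the same order. The smallest false discovery rate of a member in the authors' deposited table was 0.207, for rpl-25.1 in JTL611, whose log2 fold change there was -0.27.

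Within groups, members varied together from library to library. The within-group SD on the log2 scale, pooled over the 16 groups, had a median of 0.160 over the 81 members. After each library's median deviation of the family was subtracted it was 0.103, and it was smaller for 76 of 81 members. For the 1612 other genes averaging 100 CPM or more the same subtraction raised the median from 0.140 to 0.204, and the SD was smaller after it for 269 of them. The family's own median was used for the subtraction, so a drop in its members was built in to a degree. The largest within-group SDs were those of rla-2 (0.286), rpl-43 (0.283) and rps-21 (0.264), and the smallest was that of rpl-3 (0.068), the large subunit protein next to the peptidyl transferase centre.

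The genes of largest spread stood high in 3 heat shocked libraries. In JTL611 heat shocked on ethanol rla-2 stood at 748, 454 and 488 CPM, in CA1199 at 527, 784 and 424 CPM, and in JTL621 heat shocked on auxin at 453, 1287 and 537 CPM. In CA1200, which had none of these 3 libraries, the 12 libraries lay between 439 and 574 CPM. JTL611 replicate 1, CA1199 replicate 2 and JTL621 replicate 2 of those groups were also the 3 libraries with the highest summed level of the family, at 156503, 149289 and 155983 CPM.

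These libraries differed from their groups by gene length as well. The family is short: its exon length had a median of 530 bp and a range of 236 to 1456 bp, beside a median of 1394 bp over all listed genes. Among other genes averaging 10 CPM or more, in JTL611 heat shocked on ethanol, replicate 1, the median deviation from the group mean was 0.44 for genes of up to 400 bp and -0.50 for genes over 5000 bp, beside 0.34 for the family. In JTL621 heat shocked on auxin, replicate 2, these values were 0.50, -0.29 and 0.22, and in CA1199 heat shocked on ethanol, replicate 2, they were 0.21, -0.46 and 0.19. The family deviated from its group by more than 0.1 in 11 of 48 libraries, 9 of which were heat shocked. In all 11 the other genes of up to 400 bp deviated in the same direction as the family and those over 5000 bp in the opposite direction. Each deviation is from the mean of 3 libraries, so 1 outlying library moves the others of its group the opposite way. The libraries of JTL611 heat shocked on ethanol were all among the 11, at 0.34, -0.21 and -0.12. The 11 therefore do not stand for that many separate observations.

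**Figure D5:**
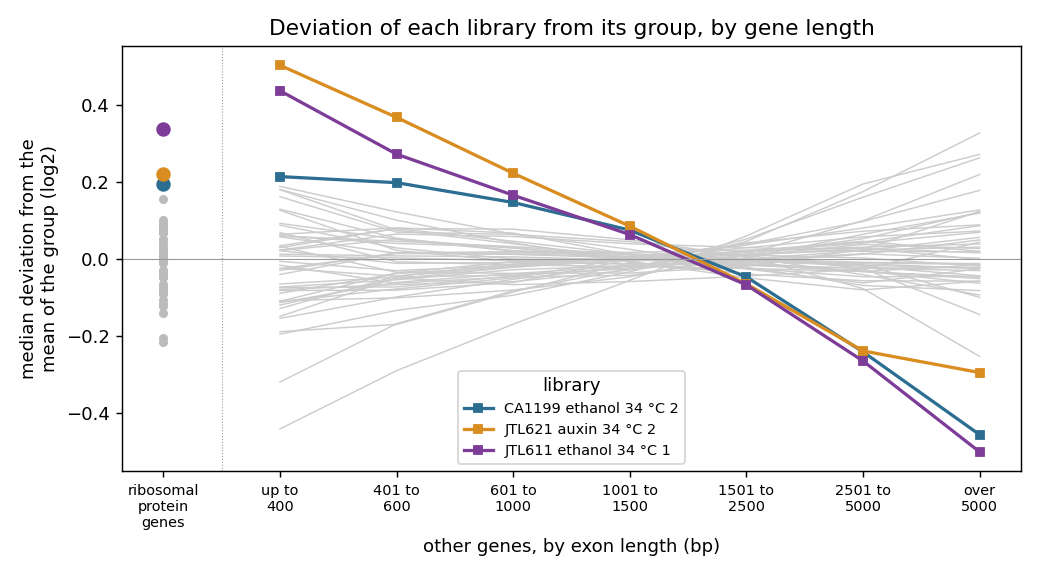
Median deviation of each library from the mean of its group (log2) for the ribosomal protein genes (circles) and for other genes averaging 10 CPM or more by exon length in bp (lines), 48 libraries. The 3 coloured libraries, with the highest family values of 0.19 to 0.34, fall from 0.21 to 0.50 in genes of up to 400 bp to between -0.50 and -0.29 in genes over 5000 bp.

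Sums of tissue markers also differed in these libraries, given here for JTL611, CA1199 and JTL621 in that order. The summed level of the intestine markers was 28391, 23234 and 24929 CPM, the 3 lowest of the 48 libraries, beside a median of 45258. That of the major sperm protein genes was 3128, 3231 and 4275 CPM, the 3 highest, beside a median of 2093. Epidermis markers summed to 3143, 2433 and 2987 CPM beside a median of 2292, and JTL611 and JTL621 held the highest values. Germline markers summed to 5704, 6268 and 5070 CPM beside a median of 7603, but 3 libraries at 20 °C, with 5534, 6171 and 6179 CPM, were also below the CA1199 value. The sums of muscle markers (5604, 6826 and 6728 CPM, median 5884), pharynx markers (151, 191 and 185, median 129) and neuron markers (339.9, 251 and 259.7, median 377) lay within the range of the other libraries. The marker lists were not matched for gene length, and these libraries also deviated by gene length. Differences of tissue and of gene length cannot be told apart in these sums. The part of tissue makeup and of RNA fragment length in the levels of the family was not tested.

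The family medians moved when these libraries were left out. Without replicate 1 of JTL611 heat shocked on ethanol, the median log2 change on ethanol in that strain was -0.07 in place of 0.10. Without replicate 2 of CA1199 heat shocked on ethanol it was 0.11 in place of 0.19. The auxin comparisons moved with the same libraries. Without the JTL611 library the median for auxin with heat shock was 0.08 in place of -0.08, the interaction 0.15 in place of -0.01 and the difference from CA1200 0.14 in place of -0.02. Without the JTL621 library these were 0.00 in place of 0.11, 0.04 in place of 0.16 and, against CA1199, 0.06 in place of 0.18. Without the CA1199 library the median for auxin with heat shock was 0.02 in place of -0.07 and the interaction -0.09 in place of -0.19. With the length trend removed, the medians moved toward 0 in some comparisons and away from it in others. They were 0.08, 0.03, 0.08 and 0.11 with ethanol for CA1200, JTL611, CA1199 and JTL621, in place of 0.04, 0.10, 0.19 and 0.11, and on auxin 0.09, 0.03, 0.07 and 0.01, in place of -0.01, 0.09, 0.02 and 0.28. In JTL621 on auxin, other genes of up to 400 bp had a median log2 change of 0.46 with heat and those over 5000 bp -0.21, beside 0.28 for the family. In CA1200 on auxin the same values were -0.26 and 0.22, beside -0.01 for the family.

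Against the median of the family, members had small mean positions in heat shock, and most changed side between comparisons. The means ran from -0.12 to 0.11. The member of highest mean, rpl-43, ranged from -0.05 to 0.48. The 8 heat comparisons, on ethanol and on auxin in 4 strains, share no libraries. Of the 80 members tested in all 8, 1 lay above the family median in each of them and 3 lay below it in each. rps-26 was the 1 above, by a mean log2 of 0.08 and a range of 0.05 to 0.12. rpl-31 lay below the family median in 8 of 8, by a mean of -0.12 and a range of -0.19 to -0.04. rpl-12, a protein of the stalk base, and rpl-24.2 also lay below in 8 of 8, with means of -0.06 and -0.08. The value of rpl-24.2 nearest the family median was -0.00089. rpl-12 was named after its values were seen. rps-26 and rpl-31 had been named for their mean change on ethanol, which comes from 4 of these 8 comparisons. These positions are a description of the 80 members, and no test of them was made.

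Genes around the ribosome were taken from lists chosen with earlier results of these data known. Their counts are to be read against all genes tested, in the order CA1200, JTL611, CA1199 and JTL621. On ethanol, heat called 5.73%, 2.31%, 3.94% and 2.54% of all genes higher and 7.51%, 4.17%, 14.4% and 7.43% lower. On auxin it called 9.57%, 2.24%, 3.83% and 6.22% higher and 9.86%, 5.4%, 12.5% and 11.3% lower. No test of a list against these shares was made. Gene length was not taken into account for the lists. In heated CA1200, other genes over 5000 bp averaging 10 CPM or more had median log2 changes of 0.20 on ethanol and 0.22 on auxin. Those of up to 400 bp had -0.09 and -0.26. The part of gene length in the calls of the lists was not tested. Of 10 RNA polymerase I and III genes, heat on ethanol raised 5, 1, 0 and 1 in CA1200, JTL611, CA1199 and JTL621, and lowered none (limma, adjusted p under 0.05). On auxin it raised 5, 1, 2 and 0. rpoa-1, the largest subunit of RNA polymerase I, which makes the large ribosomal RNA precursor, rose from 75.9 ± 8.22 to 115 ± 5.09 CPM on ethanol in CA1200 (SD, n = 3; log2 change 0.60, SE 0.09, limma adjusted p = 0.000472). In JTL621 on ethanol it rose from 76.6 ± 11.9 to 118 ± 8.23 CPM (log2 change 0.63, limma adjusted p = 0.0185). rpc-1, the largest subunit of RNA polymerase III, rose in CA1200 from 176 ± 3.44 to 217 ± 5.74 CPM (log2 change 0.30, limma adjusted p = 0.00160).

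Of 23 ribosome biogenesis genes, heat on ethanol raised 4, 0, 1 and 1 in the strains in that order, and on auxin 7, 0, 3 and 3, with none lowered. pro-3, a nucleolar gene of this list, rose from 27.3 ± 1.12 to 42.6 ± 0.938 CPM on ethanol in CA1200 (SD, n = 3; log2 change 0.62, limma adjusted p = 5.05e-05). nol-6, which encodes a nucleolar protein, rose there as well (log2 change 0.52, limma adjusted p = 0.00429) and from 28.6 ± 1.34 to 41.6 ± 1.41 CPM in JTL621 on ethanol (log2 change 0.53, limma adjusted p = 0.0185). The median log2 change of the list on ethanol was 0.02, 0.03, 0.06 and 0.11 in CA1200, JTL611, CA1199 and JTL621.

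Of 70 mitochondrial ribosomal protein genes, which serve the separate ribosome of mitochondria, heat on ethanol raised 3, 2, 1 and 0 and on auxin 5, 1, 2 and 0, with none lowered. The largest of these counts, 5 of 70 in CA1200 on auxin, was a smaller share than the 9.57% of all genes called higher there. mrpl-45 rose in 3 of the 4 strains on ethanol, for example from 33.6 ± 0.581 to 46.3 ± 4.48 CPM in JTL611 (SD, n = 3; log2 change 0.45, SE 0.09, limma adjusted p = 0.00862). mrps-31 rose in CA1200 from 29.2 ± 0.587 to 40.5 ± 2.04 CPM (log2 change 0.46, limma adjusted p = 0.00218). The list's medians on ethanol were 0.02, 0.13, 0.16 and 0.06, beside 0.04, 0.10, 0.19 and 0.11 for the cytosolic family.

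Among 8 elongation and termination factors heat on ethanol and on auxin lowered only eef-1A.2, in JTL611 and CA1199. This gene, one of a pair of genes for elongation factor 1A, fell from 485 ± 34.9 to 347 ± 48.5 CPM in JTL611 on ethanol (SD, n = 3; log2 change -0.49, SE 0.11, limma adjusted p = 0.0199) and from 686 ± 159 to 459 ± 50.0 CPM in CA1199 (log2 change -0.56, limma adjusted p = 0.0194). Reads that fit both genes of the pair could be split by the counting. Of 35 initiation factors, heat on ethanol raised 1, ife-3 in CA1199, from 308 ± 38.0 to 386 ± 7.56 CPM (log2 change 0.33, limma adjusted p = 0.0274); ife-3 encodes a cap-binding protein. On auxin it raised 4 in CA1200 and 1 in JTL621 and lowered 1 in CA1199, ife-2. Of 10 TOR pathway genes, heat on ethanol raised 2 in CA1200, rict-1 and let-363, and none in the other strains; let-363, which encodes the TOR kinase, stood at 130 ± 18.2 and 161 ± 8.48 CPM (log2 change 0.32, limma adjusted p = 0.0365). On auxin heat raised 3 of the 10 in CA1200, rict-1, daf-15 and let-363, and lowered 1 in CA1199, ife-2 (log2 change -0.38), and 1 in JTL621, ncl-1 (log2 change -0.66). The gene ife-2 is on both the TOR and the initiation factor list, so its call is counted in each. Of 5 ubiquitin-fusion and ribosome-bound genes none was called with heat on ethanol or auxin. Auxin, with or without heat, called 0 genes of these 7 lists in any strain.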

How the data were processed

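Per strain, the authors' deposited files hold log2 values for each library, read as log2 CPM with a prior count from the file names and the values themselves, and an edgeR comparison of auxin with ethanol after heat shock, with log2 fold change, p-value, false discovery rate and a likelihood ratio score (not used here), as deposited. The submitters' processing notes name STAR, featureCounts, edgeR, WBcel235 and ce11 without versions. Taken back to reads, 100% of values lay within 0.05 of a whole number. limma 3.58.1 (R 4.3.3) with a mean-variance trend was run on log2(CPM + 1), all 4 groups of a strain in one fit and keeping genes that average 1 CPM or more; limma-voom on the recovered reads was an alternative. Gene symbols, exon lengths and positions came from Ensembl release 115 (WBcel235); RefSeq names come from its WBcel235 table. Members, lists and tests were chosen with earlier results of these data known. The genes named were those called, the 3 of largest and 3 of smallest mean heat change on ethanol, the 3 highest and 3 lowest per kilobase, copies by suffix, the 3 of largest within-group SD and the stalk genes; of other lists, up to 3 called genes per comparison. Tests were made within a strain's table, except that the auxin effects of a degron strain and its control were compared in one fit. Group deviations of same-numbered libraries correlated above 0.1 in all 3 pairs in 10 of 16 comparisons, which pairs those libraries from the data, not from the labels. The fits were checked on simulated data. Alternatives tried were other pseudocounts, filters, scalings, a replicate block and leaving out each library.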

Additional observations from a re-analysis of the deposited data

How the results depend on the processing

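The count of members called in each of the 22 comparisons was recomputed under up to 11 alternative settings, and with each replicate left out. In CA1200, heat shock on ethanol called 1 member in place of 0 with quantile normalisation (lower) and with the length trend removed (higher). In CA1200, heat shock on auxin called 1 member in the reported fit, 2 without the filter on low values, 2 with CPM over genes other than ribosomal RNA genes, 3 with quantile normalisation and 0 with only the libraries compared (rpl-29, adjusted p = 0.0925). In that comparison the log2 change of rpl-29 reversed to 0.0233 (adjusted p = 0.863) with the length trend removed, an alternative chosen after seeing the data, which called 1 other member, rpl-37, higher. In JTL621, heat shock on auxin called 1 member with median-of-ratios size factors. The remaining 231 counts under such settings were within 1.5 times the reported ones. Leaving out 1 replicate gave 0 to 2 members in CA1200 on auxin, 0 to 5 in CA1199 on ethanol (5 without replicate 3 at 20 °C) and 0 to 25 in JTL621 on auxin. The fit with the replicate block called 1 member in CA1200 on auxin (rpl-29, adjusted p = 0.0292) and changed no other count. The cause of these changes was not tested. The family median moved by at most 0.131 under scaling alternatives and by up to 0.268 with the length trend removed. The count models planned for files of counts (edgeR and DESeq2) were not run; limma-voom was run on the recovered reads. The filter on low values removed rpl-42 in CA1200 and JTL611, and how depth or the number of libraries limits the other members was not tested.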
